A study of Homo sapiens with 4 samples.

Results

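Axon guidance genes of the ephrin, semaphorin, slit and netrin systems were followed in human embryonic stem cells at day 2 of hematopoietic differentiation. The members were all genes whose symbol names an ephrin (EFNA, EFNB), an Eph receptor (EPHA, EPHB), a semaphorin, a plexin, a neuropilin (NRP1, NRP2), a slit, a ROBO receptor, a netrin (NTN followed by a number) or an UNC5 receptor. The rule used symbols only and found 68 of 17894 genes, namely 8 ephrins, 14 Eph receptors, 20 semaphorins, 11 plexins and neuropilins, 7 slits and ROBO receptors and 8 netrins and UNC5 receptors. A filter of a mean of at least 1 FPKM over all libraries kept 51 of them, out of 12697 genes in all.

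The cells were H1, an embryonic stem cell line, differentiated on the mouse stromal line mAGM-S3 and collected at day 2 as TRA-1-85+ cells, TRA-1-85 being an antigen of human cells. Of the 4 libraries, 1 came from untreated control cells, 1 from cells kept in R-spondin2 (20 ng/mL) over the first day only, and 1 from each of 2 LGR4-/- clones without R-spondin2. R-spondin2 is a secreted agonist of WNT signaling and LGR4 is one of its receptors. Each LGR4-/- library is 1 clone of H1, the control and R-spondin2 conditions are 1 library each, and both comparisons use the same control library.

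Eph receptors are receptor tyrosine kinases that bind ephrins held on the surface of a neighbouring cell, A-type ephrins by a lipid anchor and B-type ephrins by a transmembrane domain. Semaphorins act through plexins, and the secreted class 3 semaphorins also need neuropilins, which serve as co-receptors for VEGF as well. Slits bind ROBO receptors, and netrins bind DCC, neogenin and UNC5 receptors. Beyond the nervous system, these ligands and receptors are known for cell sorting, migration and boundary formation in the gastrulating embryo and in growing vessels.

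Values are FPKM, fragments scaled for transcript length and library depth, so that levels can be set side by side between genes. Differences are on the log2(FPKM+1) scale, which makes differences of low genes smaller. A gene was called where it was 2-fold or more from the control, in the same direction in both clones for LGR4-/-. No comparison has a replicated control, so the main results carry no test. The 95% intervals given are Clopper-Pearson intervals of the ratio of implied reads to the control and cover counting error only. Depth was estimated at 8700000 to 8920000 reads per library.

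LGR4 itself read 21.8 FPKM in the control, 24.3 with R-spondin2, 7.4 in clone 1 and 13.9 in clone 2. Both clones were below the control, and neither was near 0. The labels do not say how LGR4 was disrupted, so its RNA level does not check the edit. The sort antigen BSG lay between 393.4 and 483.2 FPKM in the 4 libraries. Summed levels of the 10 primitive streak and nascent mesoderm genes were 3130.8 FPKM in the control, 4451.7 with R-spondin2, and 938.0 and 1540.8 in clones 1 and 2. CER1 alone read 2395.5, 3467.3, 598.8 and 1033.6 FPKM of these sums. All 10 had a mean below the control in LGR4-/-, but FGF8 read 28.1 FPKM in clone 2 against 25.9 in the control. T read 66.5 FPKM in clone 2 against 70.3 in the control. Lateral and hematopoietic mesoderm genes summed to 556.9, 706.5, 122.6 and 207.6 FPKM in the same order, all 7 tested ones below the control in LGR4-/-. Summed pluripotency genes were 1541.0, 1289.9, 2381.3 and 2248.0 FPKM, with 9 of 9 above the control in LGR4-/-. Of the cells that guidance genes are best known from, 6 neuron genes summed to 114.9 to 148.7 FPKM, of which TUBB3 alone read 105.4 to 136.6 FPKM, and 6 endothelium genes to 8.03 to 13.7 FPKM, of which CDH5 read at most 0.05 FPKM in any library. Endoderm genes summed to 205.5 FPKM in the control, 254.2 with R-spondin2, and 79.8 and 105.5 in clones 1 and 2. Of the 5 tested endoderm genes, 4 had a mean below the control in LGR4-/- and 1 above. Sums were 126.4 to 178.1 FPKM for neuroectoderm, 12 to 17 for blood and 222.9 to 308.6 for mesenchyme genes. At 2-fold or more in both clones, 4 of 7 lateral mesoderm, 3 of 10 primitive streak and 1 of 5 endoderm genes were lower, where 1.08% of all genes were. Of the 9 pluripotency genes 2 were higher, where 0.236% of all genes were. Further lower ones were 1 of 4 tested blood genes (RUNX1) and 1 of 7 mesenchyme genes (LUM). In these 2 lists 1 blood gene and 3 mesenchyme genes had a mean above the control. The mesoderm and endoderm sums were thus lower in both clones and the pluripotency sum higher. The mesenchyme sum went both ways, at 245.3 FPKM in the control and 222.9 and 253.9 in clones 1 and 2. What part such shifts have in the guidance results below was not tested. In bulk libraries, fewer cells of a type and less RNA per cell cannot be told apart.

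Promoter sequences are shown for guidance genes that were lower together in both clones, since R-spondins act on WNT signaling and the TCF/LEF factors at its end bind a known short motif. They are from RefSeq on GRCh38.p14, while the deposited values were made on hg19. Each run is the 200 bases before an annotated start, 5′ to 3′ on the gene's strand. Capitals mark a TCF/LEF motif, CTTTGA or CTTTGT on either strand. PLXNA2 lies at chr1:208244385-208244584 on the minus strand, and SEMA6D at chr15:47183889-47184088 on the plus strand, before the first of 3 annotated starts. NRP2 lies at chr2:205682301-205682500 on the plus strand, and UNC5C at chr4:95548974-95549173 on the minus strand.
PLXNA2: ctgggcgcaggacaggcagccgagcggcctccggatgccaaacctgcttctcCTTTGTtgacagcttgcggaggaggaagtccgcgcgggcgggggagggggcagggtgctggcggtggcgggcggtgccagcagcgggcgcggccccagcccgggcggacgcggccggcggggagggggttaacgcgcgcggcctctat
SEMA6D: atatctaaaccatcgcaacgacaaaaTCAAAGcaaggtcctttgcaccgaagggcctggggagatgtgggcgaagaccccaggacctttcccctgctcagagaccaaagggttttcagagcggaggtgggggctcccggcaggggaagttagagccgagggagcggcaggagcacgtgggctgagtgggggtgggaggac
NRP2: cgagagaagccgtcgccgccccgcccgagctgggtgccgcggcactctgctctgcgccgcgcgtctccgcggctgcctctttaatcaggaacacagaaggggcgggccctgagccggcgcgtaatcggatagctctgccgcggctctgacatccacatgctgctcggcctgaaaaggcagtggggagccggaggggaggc
UNC5C: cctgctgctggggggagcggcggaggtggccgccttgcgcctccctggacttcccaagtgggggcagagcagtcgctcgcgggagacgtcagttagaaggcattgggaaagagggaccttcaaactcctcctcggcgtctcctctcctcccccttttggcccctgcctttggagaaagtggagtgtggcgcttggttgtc
The motif lay 148 bases before the PLXNA2 start and, on the opposite strand, 174 bases before the SEMA6D start. The other 2 runs hold none. Over the 250 bases before each start, 2 of 8 windows of the 5 lower members with an entry (PLXNA2, SEMA6D, NRP2, UNC5C and NTN4) held the TCF/LEF motif, 25%, beside 19.1% of the windows of all tested members with an entry and 16.9% of the 14452 windows of all tested genes. The T-box motif TCACAC was in 0 of these 8 windows, in 5.88% of windows of tested members and in 7.65% of those of all tested genes. The SMAD motif GTCTAGAC was in 0 of the 8 windows and in 0.138% of those of all tested genes. At such shares 8 windows are too few for 0 matches to tell anything, and the 25% for TCF/LEF rests on 2 windows. The T-box and SMAD motifs were searched on both strands, and with no match neither overlapped a TCF/LEF motif here. A match in letters is a description and shows no binding.

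Among the 51 tested guidance genes, 6 were 2-fold or more below the control in both LGR4-/- clones, 11.8%, where 1.08% of all tested genes were. They were NRP1, NRP2, PLXNA2, SEMA6D, UNC5C and NTN4. Counted up from the lowest mean LGR4-/- difference of all 12697 genes, NRP1 stood at place 24, PLXNA2 at 41, SEMA6D at 64, NRP2 at 66, UNC5C at 77 and NTN4 at 111. None was called higher in both clones, against 0.236% of all genes. At 1.5-fold, 11 members were lower, 21.6% against 3.09% of all genes, with EPHA4, EPHB2, EPHB3, SEMA5A and NTN1 added. At the same threshold 3 were higher, 5.88% against 2.61%, namely EPHA1, SEMA4D and SEMA6A. The median difference of the members was -0.01 against 0.02 for all genes, while the median size of the difference was 0.424 against 0.147. Guidance genes were therefore spread to both sides of the control, with the largest differences on the lower side. With limma, which takes its spread from the 2 clones alone, no member and none of all tested genes passed an adjusted p of 0.05 (0%). At an unadjusted p under 0.05 there were 24 members, 47.1%, against 17.8% of all genes.

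**Figure D1:**
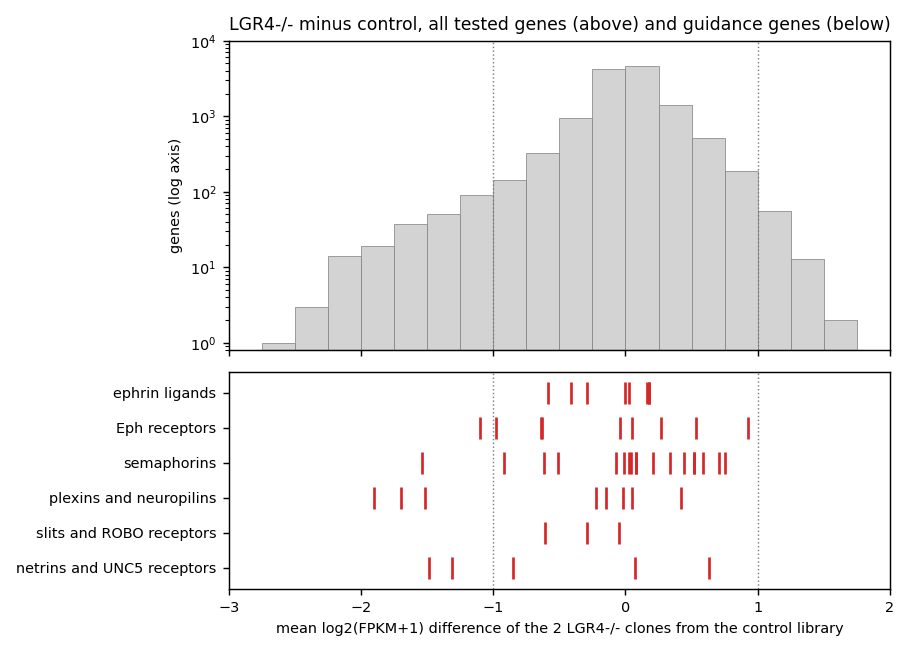
Upper panel, number of tested genes (log axis) in bins of the mean LGR4-/- difference from control on the log2(FPKM+1) scale; lower panel, 1 red line per tested guidance gene by family, with dotted lines at 2-fold. The 3 leftmost lines of the plexins and neuropilins are NRP1 at -1.90, PLXNA2 at -1.70 and NRP2 at -1.52, and no guidance gene lies right of 1.

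With R-spondin2, 0 of 51 members were 2-fold from the control in either direction on the log2(FPKM+1) scale, where 0.173% of all genes were lower and 0.0473% higher. At 1.5-fold, 1 member was lower, SEMA6A, 1.96% against 1.46% of all genes, and 0 were higher, against 0.536%. The members' median difference was 0.04 and that of all genes -0.01. The median size of the difference was 0.204 in members and 0.108 in all genes. Members thus differed less from control with R-spondin2 than in the clones, and their R-spondin2 values were nonetheless spread more widely than those of the median gene.

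Between the 2 clones, 0 members differed 2-fold on the log2(FPKM+1) scale, against 0.252% of all genes, and 3 differed 1.5-fold, 5.88% against 2.41%. The 3 that differed 1.5-fold were NRP1 and PLXNA2, lower in clone 1, and SEMA4A, higher in clone 1. On the scale of implied reads, the clone 2 to clone 1 log2 ratio was 1.25 (0.68 to 1.85) for NRP1 and 1.02 (0.57 to 1.48) for UNC5C, both past 2-fold. Of the 11 members lower at 1.5-fold, 10 were farther from the control in clone 1 than in clone 2. So were 22 of the 31 members with a mean LGR4-/- difference under 1.5-fold. Over all tested genes, too, the median size of the difference was larger in clone 1, at 0.173 against 0.141 in clone 2. Clone 1 also had the lower LGR4 RNA and the lower mesoderm sums given above. A link between these was not tested, and LGR4 RNA does not measure how far the gene was disrupted.

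Both neuropilins were called lower in the clones. NRP1, the receptor for semaphorin 3A and a VEGF co-receptor, read 15.1 FPKM in the control, 20.1 with R-spondin2, 2.11 in clone 1 and 4.95 in clone 2. NRP2, which prefers semaphorin 3F and VEGF-C, read 28.7, 38.2, 7.57 and 11.5 FPKM in the same order. Both neuropilins were lowest in clone 1, next in clone 2 and highest with R-spondin2. The level of NRP1 was 14% of the control in clone 1 and 32.8% in clone 2, and that of NRP2 was 26.4% and 39.9%. The log2 read ratio of NRP1 was -2.86 (-3.39 to -2.36) in clone 1, -1.61 (-1.97 to -1.25) in clone 2 and 0.41 (0.17 to 0.64) with R-spondin2. For NRP2 it was -1.92 (-2.18 to -1.67), -1.32 (-1.55 to -1.11) and 0.41 (0.26 to 0.56). None of these intervals holds 0. The kit does not keep strand, and an antisense gene overlaps each neuropilin (AL121748.2 and AC007362.1), so reads of the pairs cannot be told apart. The same holds for EPHA4, EPHB2, EPHB4, EFNB2, PLXNA3, SEMA3F, SEMA5A, UNC5A and UNC5C, each overlapped by a gene on the other strand.

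Plexins, the signaling receptors of semaphorins, differed from one another. PLXNA2, a receptor for semaphorins 6A and 6B that also pairs with neuropilins, read 44.1 FPKM in the control, 55.8 with R-spondin2, 9.6 in clone 1 and 17.1 in clone 2. It was the plexin with the highest control level and the only one called. Its log2 read ratio was -2.20 (-2.30 to -2.10) in clone 1, -1.36 (-1.45 to -1.28) in clone 2 and 0.34 (0.28 to 0.40) with R-spondin2. PLXNB1, the receptor of semaphorin 4D, read 25.3, 21.3, 37.1 and 31.6 FPKM in the same order, so both clones were above the control and R-spondin2 was below it. PLXNB2 stayed between 26.7 and 28.7 FPKM in all 4 libraries. The remaining tested plexins, PLXNA1, PLXNA3 and PLXND1, had mean LGR4-/- differences from -0.22 to -0.02. Over the 8 tested plexins and neuropilins the median difference was -0.18 in LGR4-/- and 0.21 with R-spondin2.

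**Figure D2:**
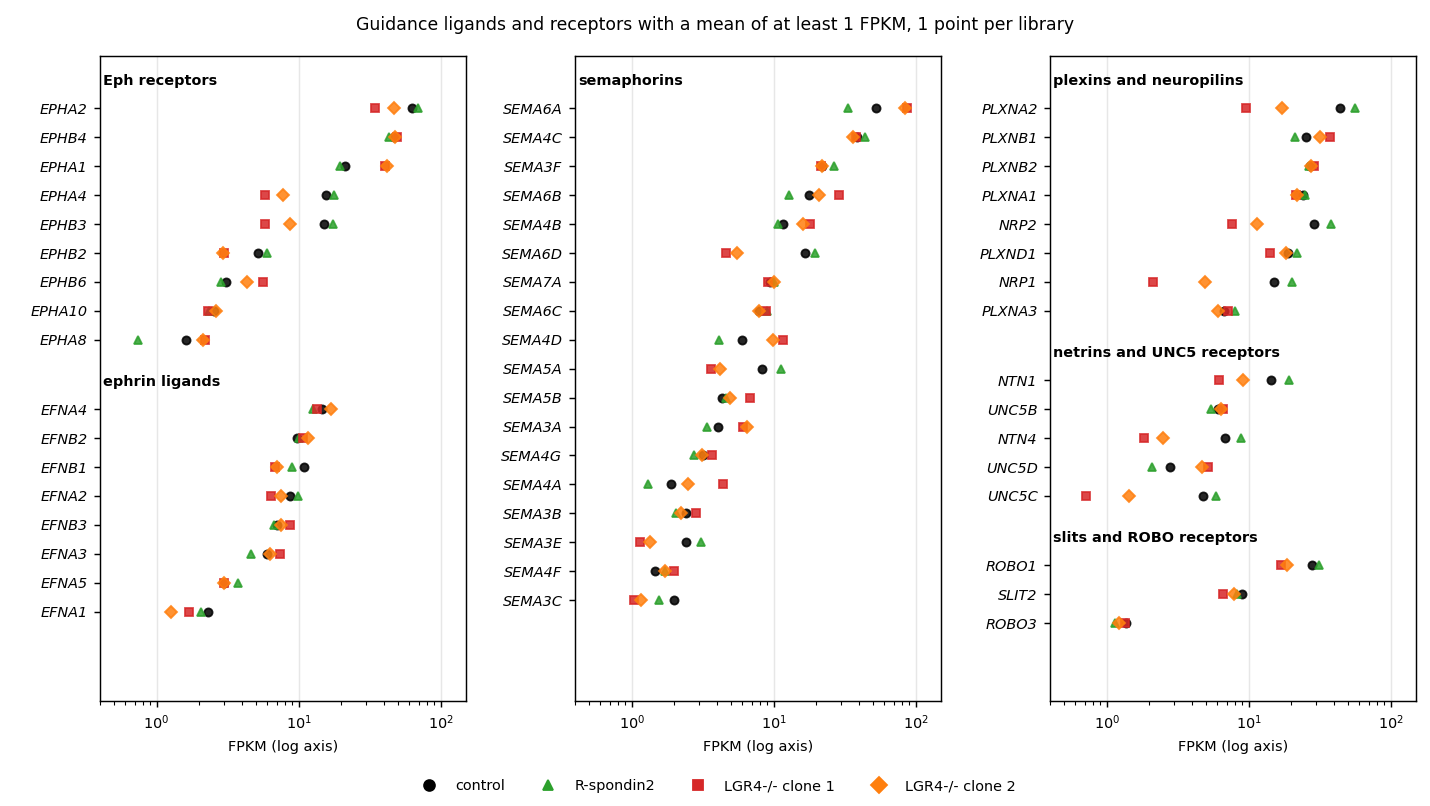
FPKM (log axis) of the 51 tested guidance genes in each library, 1 point per library and ordered by mean within each family; black circles are the control, green triangles R-spondin2, red squares LGR4-/- clone 1 and orange diamonds clone 2. PLXNA2, NRP2, NRP1, SEMA6D, NTN4 and UNC5C have both clones left of the control, whereas EPHA1 and SEMA6A have both clones right of it.

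Semaphorins went to both sides. SEMA6D, a transmembrane class 6 semaphorin, read 16.6 FPKM in the control, 19.7 with R-spondin2, 4.59 in clone 1 and 5.53 in clone 2. Its log2 read ratio was -1.85 (-2.20 to -1.52) in clone 1, -1.59 (-1.91 to -1.28) in clone 2 and 0.24 (0.03 to 0.46) with R-spondin2. SEMA6A, of the same class and the semaphorin with the highest level here, read 52.3, 33.4, 87.1 and 84.8 FPKM in that order. The 2 class 6 genes thus lay on opposite sides of the control in both clones and also with R-spondin2. The read ratio of SEMA6A was 0.74 (0.66 to 0.82) in clone 1, 0.70 (0.62 to 0.78) in clone 2 and -0.65 (-0.75 to -0.54) with R-spondin2. The 2 antisense genes that overlap SEMA6A, SEMA6A-AS1 and SEMA6A-AS2, cannot be told apart from it in these libraries. SEMA6B, a further class 6 member, read 17.8, 12.9, 28.8 and 20.8 FPKM, and SEMA6C differed by 0.08 in LGR4-/-.

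Class 4 semaphorins are membrane-bound ligands, several of which act in immune cells. SEMA4D, the ligand of plexin-B1, read 5.95 FPKM in the control, 4.13 with R-spondin2, 11.6 in clone 1 and 9.82 in clone 2. SEMA4B read 11.7, 10.7, 18.1 and 16.2 FPKM, and SEMA4A 1.89, 1.31, 4.41 and 2.48 FPKM. In these 3 genes the clones read above the control and the R-spondin2 library below it. SEMA4C, the class 4 gene with the highest level, did not share this order and read 38.9, 44.2, 37.8 and 36.5 FPKM. With R-spondin2 the counting interval was -0.83 to -0.22 for SEMA4D, and it held 0 for SEMA4B (-0.33 to 0.09) and SEMA4A (-1.19 to 0.14). The interval of SEMA4A in clone 2 also held 0 (-0.16 to 0.96). The median difference of the 6 class 4 genes was 0.37 in LGR4-/- and -0.13 with R-spondin2.

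Class 3 semaphorins are the secreted ligands of the neuropilins. SEMA3F read 21.8 FPKM in the control, 26.6 with R-spondin2, 21.4 in clone 1 and 21.8 in clone 2, so that the clones lay at the control level. SEMA3A read 4.07, 3.38, 6.11 and 6.44 FPKM. The summed level of the class 3 genes was 34.5, 38.1, 34 and 34.5 FPKM, while that of the neuropilins was 43.8, 58.2, 9.68 and 16.4 FPKM. SEMA3F carries most of the class 3 sum. Of the 5 tested class 3 genes 3 had a mean below the control in LGR4-/-, including SEMA3E at -0.62 and SEMA3C at -0.51, both singled out after their values were seen. SEMA5A, a transmembrane semaphorin with thrombospondin repeats, read 8.29, 11.3, 3.61 and 4.22 FPKM and was lower in both clones at 1.5-fold. Over the 18 tested semaphorins the median difference was 0.08 in LGR4-/-, with 12 above 0 and 6 below, and -0.02 with R-spondin2.

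**Figure D3:**
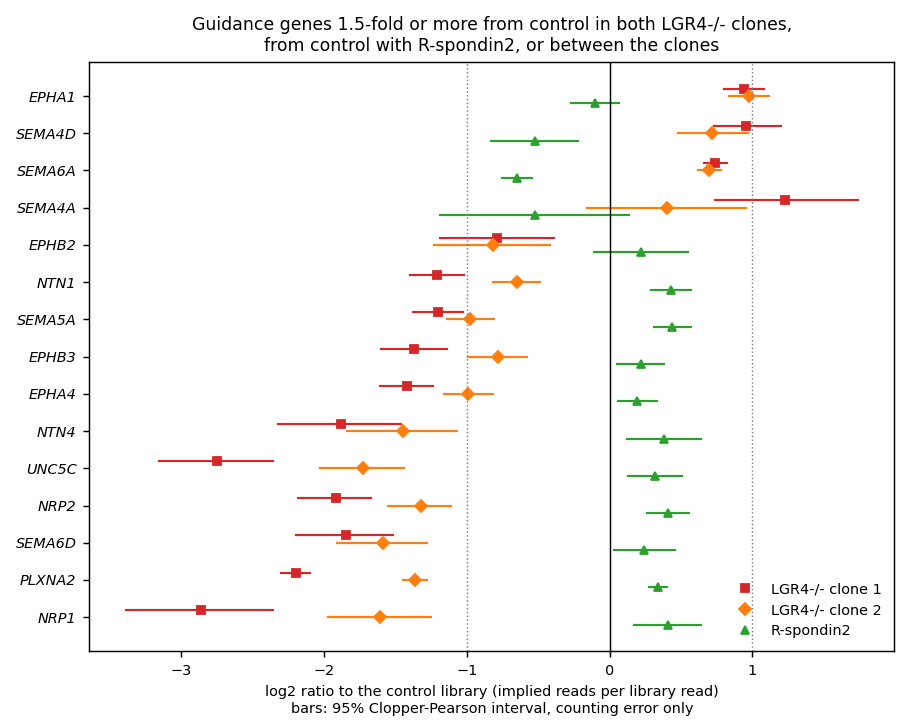
Log2 ratio of implied reads to the control library, with 95% Clopper-Pearson intervals that cover counting error only. The 15 guidance genes drawn were called at 1.5-fold on the log2(FPKM+1) scale, in both clones, with R-spondin2 or between the clones. On the plotted scale other members pass 1.5-fold too, such as SEMA3E at -1.09 in clone 1 and -0.85 in clone 2. Red squares are LGR4-/- clone 1, orange diamonds clone 2, green triangles R-spondin2, and dotted lines mark 2-fold. From NRP1 at the bottom up to EPHB2, 11 genes have both clones left of 0, and their R-spondin2 points lie right of 0.

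Among Eph receptors, the levels moved between members. EPHA2, an EphA receptor of epithelial and embryonic cells, had the highest control level of any member and read 63.3 FPKM in the control, 69.2 with R-spondin2, 34.5 in clone 1 and 47.1 in clone 2. EPHA1 read 21.1, 19.7, 40.5 and 41.7 FPKM in that order. EPHA1 was close to 2-fold above the control in both clones, at read ratios of 0.94 (0.80 to 1.08) and 0.98 (0.84 to 1.12), while R-spondin2 gave -0.10 (-0.27 to 0.07). The gene ZYX lies across from EPHA1 on the other strand. It read 121.4, 114.0, 122.8 and 128.0 FPKM in that order. Reads of EPHA1 and ZYX where they overlap cannot be told apart in these libraries.

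EPHA4, a receptor of both A-type and B-type ephrins, read 15.5 FPKM in the control, 17.8 with R-spondin2, 5.8 in clone 1 and 7.81 in clone 2. EPHB3, a B-type receptor known as a WNT target in the intestine, read 15, 17.4, 5.78 and 8.67 FPKM. EPHB2, a member singled out after its values were seen, read 5.14, 6.02, 2.99 and 2.93 FPKM. All 3 were lower in both clones at 1.5-fold and not at 2-fold. EPHB4, the receptor of ephrin-B2 and known from veins, read 46.9, 43.2, 49.4 and 47.7 FPKM. Its counting intervals were -0.22 to -0.02 with R-spondin2, -0.02 to 0.17 in clone 1 and -0.07 to 0.12 in clone 2, so a difference in the clones was not detectable at this depth. EPHB6, which has no kinase activity, read 3.1, 2.82, 5.58 and 4.35 FPKM. EPHA8 read 1.6, 0.74, 2.18 and 2.11 FPKM, at 12 to 35 implied reads per library. Its level with R-spondin2 was 46.2% of the control, at a read ratio of -1.08 (-2.20 to -0.04), and its intervals in the clones (-0.34 to 1.22 and -0.42 to 1.16) held 0. The median of the 9 tested Eph receptors was -0.04 in LGR4-/- and -0.09 with R-spondin2. With a filter of 5 FPKM the first became -0.64.

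Ephrins are the ligands of these receptors. EFNA4 read 14.7 FPKM in the control, 12.7 with R-spondin2, 13.4 in clone 1 and 16.9 in clone 2, and EFNB2 read 9.7, 10.0, 10.7 and 11.6 FPKM. EFNB1, the X-linked B-type ephrin, read 10.9, 9.0, 6.77 and 7.1 FPKM, the largest LGR4-/- difference among ephrins at -0.59. None of the 8 ephrins was called at 1.5-fold in any comparison on the log2(FPKM+1) scale. On the scale of implied reads EFNB1 was past 1.5-fold in both clones. Its log2 read ratio was -0.69 (-0.96 to -0.44) in clone 1 and -0.63 (-0.89 to -0.37) in clone 2. The median difference of the 8 ephrins was 0.01 in LGR4-/- and -0.08 with R-spondin2. The summed ephrins were 62.3, 58.8, 57.9 and 61.2 FPKM, and the summed Eph receptors were 175.8, 180.7, 151.5 and 167.3 FPKM. EFNA3 and EFNA4 share a read-through gene (AL691442.1), which makes their values less certain.

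Netrins and UNC5 receptors held 2 of the called genes. UNC5C, a netrin receptor of the repulsive response, read 4.73 FPKM in the control, 5.89 with R-spondin2, 0.71 in clone 1 and 1.43 in clone 2. Its log2 read ratio was -2.75 (-3.16 to -2.36) in clone 1, -1.73 (-2.03 to -1.44) in clone 2 and 0.32 (0.13 to 0.51) with R-spondin2. UNC5D read 2.81, 2.07, 5.15 and 4.68 FPKM, with the clones above the control, and UNC5B read 6.12, 5.43, 6.56 and 6.34 FPKM. The 3 tested UNC5 receptors therefore differed in direction, and their sum was 13.9, 13.5, 14.3 and 13.1 FPKM over all 4 members.

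NTN4, a netrin that binds laminin, read 6.77 FPKM in the control, 8.81 with R-spondin2, 1.83 in clone 1 and 2.48 in clone 2, at read ratios of -1.88 (-2.32 to -1.46), -1.45 (-1.84 to -1.07) and 0.38 (0.12 to 0.64) for clone 1, clone 2 and R-spondin2. NTN1, the classical chemoattractant of commissural axons, read 14.3, 19.2, 6.16 and 9.07 FPKM and was lower at 1.5-fold. Both expressed netrins were below the control in the clones. The median of the 5 tested netrins and UNC5 receptors was -0.85 in LGR4-/- and 0.27 with R-spondin2. Without the filter, which adds NTN3, NTN5 and UNC5A, the LGR4-/- median became 0.08.

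Of the slits and their receptors, ROBO1 was the most abundant and read 27.7 FPKM in the control, 31.2 with R-spondin2, 17.0 in clone 1 and 18.7 in clone 2. Its read ratio was -0.70 (-0.84 to -0.57) in clone 1 and -0.57 (-0.70 to -0.43) in clone 2, and 0.17 (0.06 to 0.28) with R-spondin2. Only clone 1 passed 1.5-fold, so ROBO1 was not called. SLIT2, the one slit that passed the filter, read 9.0, 8.27, 6.54 and 7.84 FPKM, and ROBO3 read 1.36, 1.15, 1.34 and 1.21 FPKM. The median of these 3 genes was -0.29 in LGR4-/- and -0.11 with R-spondin2.

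A ratio between guidance genes within a library does not use the control, but the ratios are still set against those of the same control library. The pairs were chosen after the values were seen and are a description. EPHA2 to EPHA1 stood at 3 in the control and 3.51 with R-spondin2, and at 0.852 and 1.13 in clones 1 and 2, so that the 2 receptors were about level in the clones. UNC5C to UNC5D went from 1.68 and 2.85 to 0.138 and 0.306, and SEMA6D to SEMA6A from 0.318 and 0.59 to 0.0527 and 0.0652. NRP1 to SEMA3A was 3.71 and 5.93 against 0.345 and 0.769. In the 7 pairs plotted, both clones stood below the control and R-spondin2 above it. The first gene of each pair was itself lower in both clones and higher with R-spondin2, so this order follows largely from the choice.

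**Figure D4:**
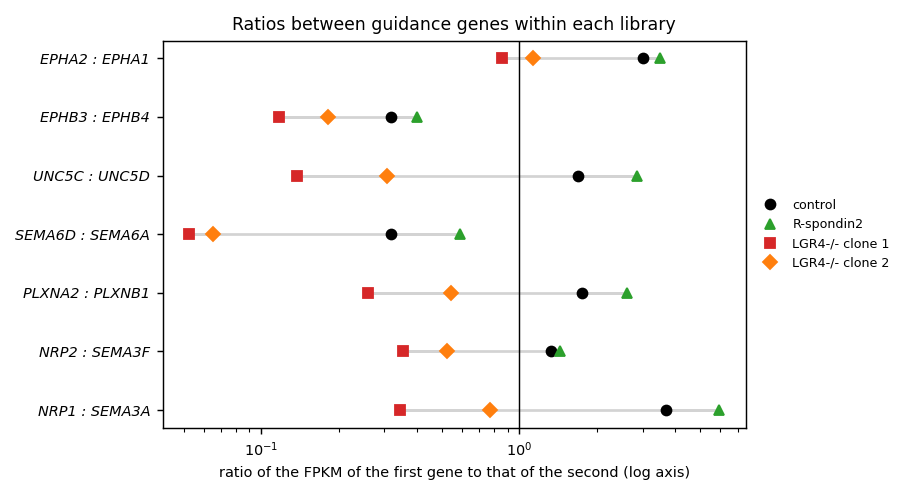
Ratio of the FPKM of 2 guidance genes within each library (log axis), for 7 pairs chosen after the values were seen; black circles are the control, green triangles R-spondin2, red squares LGR4-/- clone 1 and orange diamonds clone 2. UNC5C to UNC5D reaches 2.85 with R-spondin2 and 0.138 in clone 1, and in each pair the order from left to right is clone 1, clone 2, control, R-spondin2.

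Seen by role, the summed receptors were 411.3 FPKM in the control, 445.7 with R-spondin2, 314.1 in clone 1 and 341.3 in clone 2. The summed ligands were 307.5, 300.5, 334.1 and 324.3 FPKM. Receptors were lower in sum in both clones and ligands higher. Of the 22 tested receptors, 14 had a mean below the control in LGR4-/- and 8 above, with a median of -0.10. The lower receptor sum rests in large part on EPHA2, PLXNA2, NRP2 and NRP1, whose levels are given above. The higher ligand sum rests on SEMA6A. Without it the ligands summed to 255.3 FPKM in the control, 267.1 with R-spondin2, 247.0 in clone 1 and 239.5 in clone 2. Of the 22 tested receptors 4 were called lower in LGR4-/-, 18.2%, and of the 29 tested ligands 2, 6.9%, where 1.08% of all genes were. The difference between receptors and ligands was not tested. The 11 members lower at 1.5-fold had R-spondin2 differences of 0.18 to 0.41, and the 3 higher ones had -0.63 to -0.10. Both sets of values are measured from the same control library, which ties them to each other. With the R-spondin2 library as baseline in place of the control, 9 members were called lower in both clones, 17.6% against 1.81% of all genes. With that baseline 3 were called higher, EPHA1, SEMA4D and SEMA6A, 5.88% against 1.67%.

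Other genes of the guidance pathways were taken from fixed lists of non-members. Of 11 receptors and ligands, 7 passed the filter and 0 were called at 2-fold in either comparison. Their LGR4-/- median was -0.14 and their median size of difference 0.380. The largest mean LGR4-/- differences were those of FLRT3 at -0.75, DRAXIN at 0.69 and NTNG2 at -0.59, which were not called at 1.5-fold. DCC, the netrin receptor that attracts axons, read at most 0.11 FPKM in any library, and neogenin (NEO1) read 13.7 to 16.0 FPKM. Of 43 intracellular effectors, 41 passed and 0 were called at 2-fold on the log2(FPKM+1) scale, with an LGR4-/- median of 0.00. In plain FPKM, MICAL2 in both clones and DPYSL5 with R-spondin2 were more than 2-fold below the control. At 1.5-fold 1 effector was lower in both clones, 2.44% against 3.09% of all genes, and 3 were higher, 7.32% against 2.61%. With R-spondin2 3 were lower, 7.32% against 1.46%. MICAL2, an oxidoreductase of the actin cytoskeleton, was the lower one, at 4.33 FPKM in the control, 5.38 with R-spondin2 and 1.54 and 1.84 in clones 1 and 2. The higher ones were RND1, GRB7 and DPYSL3, and those lower with R-spondin2 were DPYSL3, DPYSL5 and GRB7. DPYSL5 read 2.88 FPKM in the control, 0.98 with R-spondin2, 7.91 in clone 1 and 4.33 in clone 2. DPYSL3, of the family that relays semaphorin signals to microtubules, read 53.3, 33.1, 121.0 and 97.1 FPKM in that order.

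The remaining 17 members did not pass the filter. Their highest value in any library was 1.35 FPKM for EPHA7, 0.83 for EPHB1, 0.51 for EPHA6, 0.13 for EPHA3 and 0.13 for EPHA5. Among semaphorins and plexins it was 0.72 for SEMA3D, 1.04 for SEMA3G, 1.13 for PLXNA4, 0.59 for PLXNB3 and 0.73 for PLXNC1. Among slits and ROBO receptors it was 0.26 for SLIT1, 0.85 for SLIT3, 0.4 for ROBO2 and 0.12 for ROBO4, which was listed at 0 in both clones. Among netrin genes it was 0.28 for NTN3, 0.57 for NTN5 and 1.86 for UNC5A. UNC5A read 0.24 FPKM in the control, 0.15 with R-spondin2, 1.86 in clone 1 and 0.69 in clone 2, that is 8, 5, 63 and 23 implied reads. Its read ratio was 2.98 (1.91 to 4.25) in clone 1 and 1.54 (0.33 to 2.91) in clone 2. The gene HK3 overlaps UNC5A on the other strand, and their reads cannot be told apart in these libraries. UNC5A was singled out after its values were seen and was not tested.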

How the data were processed

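RNA-SEQ libraries were made with an Illumina TruSeq kit, which does not keep strand, from TRA-1-85+ cells sorted at day 2. The authors deposited FPKM, estimated per gene and given to 2 decimals, with 1 value per gene and library. The submitters' processing notes name BWA, Bowtie, RSEM and the build hg19, without versions or roles. FPKM depend on the transcript models used and hold no counts, so no count model was fitted.

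FPKM were compared as log2(FPKM+1) for genes averaging at least 1 FPKM over the 4 libraries. The files give no depth. For each library the read total was sought that turned FPKM under 0.6, in transcripts of fewer than 1500 bases, into numbers nearest to whole reads. There 76.0% to 78.2% of such values were whole to within 0.2 reads, compared with 36.9% to 45.2% once lengths were shuffled. Intervals were given where at least 10 reads were implied, using the shortest listed transcript in GENCODE 29. EPHA2 had no match and has no interval.

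Genes named were the 3 most abundant members of each family, the 8 largest rises and falls in LGR4-/-, the 4 largest rises and falls with R-spondin2, all called members, and LGR4. EFNA3, EPHB2, PLXNA1, PLXNA3, PLXND1, SEMA3C, SEMA3E, SEMA6C and the untested UNC5A are named in addition, after their values were seen. The members, gene lists and motifs were chosen with earlier results of these data known. The alternatives were a pseudocount of 0.1, no filter, a filter of 5 FPKM, rescaled libraries, calls at 1.5-fold, each clone left out, the R-spondin2 library as baseline, and limma 3.58.1 in R 4.3.3, whose p-values measure only the spread between the 2 clones. The scripts were tested on simulated data. RefSeq promoters matched 58 of 68 members. Python 3.11.15 with numpy 2.4.6, pandas 2.3.3, scipy 1.17.1 and matplotlib 3.10.9 was used.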

Additional observations from a re-analysis of the deposited data

How the results depend on the processing

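The same 6 members were called lower in LGR4-/- with a pseudocount of 0.1, without the filter, with rescaled libraries and without clone 1. With a filter of 5 FPKM, 4 of them were tested and called. Leaving out each clone gave 6 to 10 members lower, and the higher value is that of clone 1 alone. At 1.5-fold there were 11 lower and 3 higher, and with the R-spondin2 library as baseline 9 lower and 3 higher. limma called 0 members at an adjusted p under 0.05, and 0 of 12697 genes, with 2261 genes and 24 members at an unadjusted p under 0.05. For the 6 lower members its adjusted p was 0.161 to 0.171. With R-spondin2, 1 member was lower at a pseudocount of 0.1 (EPHA8) and 1 at 1.5-fold (SEMA6A).

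The LGR4-/- median of the members was -0.03 with rescaled libraries, -0.09 with the R-spondin2 library as baseline and -0.02 to -0.01 with a clone left out. With R-spondin2 the median was -0.02 without the filter, 0.07 with a filter of 5 FPKM and 0.05 with rescaled libraries. Of the LGR4-/- family medians, a filter of 5 FPKM gave 0.09 for ephrins, -0.64 for Eph receptors, 0.21 for semaphorins and -0.39 for netrins and UNC5 receptors, and no filter gave 0.08 for the last. With a clone left out, the ephrin median was -0.06 to 0.02 and the semaphorin median 0.05 to 0.16. With R-spondin2, no filter gave 0.01 for Eph receptors, -0.13 for semaphorins and 0.05 for plexins and neuropilins, and a filter of 5 FPKM gave 0.13 for Eph receptors and 0.07 for semaphorins. In these the set of genes differs with the filter. No gene called at 2-fold changed direction under any of these alternatives. No paired analysis was possible because the groups share fewer than 2 replicate numbers.

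Precision is limited by 1 control library, and intervals cover counting error only.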
